A study of Mus musculus with 18 samples.

Results

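The collagen genes were followed through the differentiation of mouse embryonic stem cells (ESCs) with and without DNA methyltransferases. The members were all probe sets on the array whose single gene symbol was Col, a number, a and a number, which gave 46 probe sets of 44 genes among 35512 probe sets. By class, 11 were fibrillar collagens, 6 were basement membrane (type IV) collagens and 29 were other collagens. Col6a5 and Col6a6 have 2 probe sets each. RNA was hybridised to Affymetrix Mouse Gene 1.0 ST arrays from 3 lines of J1 ESCs, a line from the 129Sv/Jae strain. The lines were TKO, in which both alleles of Dnmt1, Dnmt3a and Dnmt3b are disrupted, Dnmt1-/-, which keeps both de novo methyltransferase genes, and wild type (wt). Each line was sampled as undifferentiated ESCs (day 0) and as embryoid bodies (EBs) grown in hanging drops for 4 and 16 days. Each of these 9 groups holds 2 arrays, labelled biological replicates 1 and 2. Values are log2 signals, so that a difference of 1 is a 2-fold change, and they are compared between samples for one probe set but never between probe sets.

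Collagens are triple-helical proteins of the extracellular matrix. Fibrillar collagens (types I, II, III, V, XI, XXIV and XXVII) build the tension-bearing fibres that fibroblasts and other mesenchymal cells lay down, and types XII and XIV sit on the surface of those fibres. Type IV collagen forms the sheet-like network of basement membranes, which the primitive endoderm of the early embryo and of EBs makes in large amounts. Type VI collagen forms beaded filaments, and type XVIII is a basement membrane collagen that carries heparan sulfate. An EB is a mixture of cell types, so in these bulk samples fewer cells of a type and less collagen RNA per cell cannot be told apart.

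The array medians lay between 5.77 and 5.90 and the replicates of each group had r between 0.981 and 0.991 over all probe sets. The Dnmt1 probe set read 8.40 to 8.75 in TKO samples and 8.45 to 8.86 in Dnmt1-/- samples, against 9.16 to 9.77 in wt samples. The sources used here do not say whether its probes lie in the deleted part. Genotypes and days were compared with limma over all 18 arrays, and a probe set was called where the fold change was at least 2 and the false discovery rate within the comparison was under 0.05. All adjusted p-values below are of this kind, and each SE is that of the fit.

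Of the 46 collagen probe sets, 15 were called in at least 1 of the 18 pairwise comparisons, or 32.6% of the members against 18.2% of all probe sets. They were 4 fibrillar, 4 basement membrane and 7 other members. The other 31 were called in none. Over the 18 arrays the 31 spanned 0.418 to 1.44 from lowest to highest value (median 0.766), while the 15 called members spanned 1.58 to 6.48 (median 3.36) and the median span of all probe sets was 0.996. The largest changes among the 31 were those of Col11a1 and Col5a1, minor fibrillar chains that set fibril diameter. In wt EBs of day 16 both exceeded the level of wt ESCs, by 0.94 (SE 0.16, adjusted p = 0.000948) for Col11a1 and by 0.93 (SE 0.14, adjusted p = 0.000342) for Col5a1, short of the 2-fold limit. The cartilage collagens Col2a1, Col9a1, Col9a2, Col9a3 and Col10a1 and the skin collagens Col7a1 and Col17a1 were in this uncalled group.

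In undifferentiated ESCs 0 of the 46 were called for TKO over wt (0.304% of all probe sets), for Dnmt1-/- over wt (0.355%) or for TKO over Dnmt1-/- (0.00563%). At an unadjusted p under 0.05 by limma there were 2 collagen probe sets for TKO over wt, 2 for Dnmt1-/- over wt and 0 for TKO over Dnmt1-/-, or 4.35%, 4.35% and 0% of the members beside 8.73%, 5.83% and 3.44% of all probe sets. The largest difference was that of Col1a1, the alpha 1 chain of type I collagen. It read 6.74 and 6.93 in TKO ESCs, 6.62 and 6.62 in Dnmt1-/- ESCs and 7.81 and 7.56 in wt ESCs, so both mutant lines lay below wt without overlap, with adjusted p = 0.46 for TKO and 0.47 for Dnmt1-/-.

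At day 16 the 3 lines differed. In TKO EBs 13 collagen probe sets were lower and 1 was higher than in wt EBs, or 30.4% of the members called against 5.83% of all probe sets (3.43% lower and 2.4% higher). In Dnmt1-/- EBs 11 were lower and 1 was higher than in wt, or 26.1% against 2.89% (1.36% lower and 1.53% higher). Between the mutant lines 9 were lower and 0 were higher in TKO than in Dnmt1-/-, or 19.6% against 1.07% (0.941% lower). The median log2 difference of all 46 was -0.17 for TKO over wt (0.05 over all probe sets), -0.31 for Dnmt1-/- over wt (-0.03) and 0.11 for TKO over Dnmt1-/- (0.06). The comparisons with wt share the wt arrays. In a fit of the 4 compared arrays alone the Dnmt1-/- over wt count was 3 and the TKO over Dnmt1-/- count was 0, with the same log2 differences. The TKO over Dnmt1-/- count was 4 without Dnmt1-/- day 16 replicate 1 or without TKO day 16 replicate 2, since Col4a1, Col4a2, Col5a2, Col12a1 and Col14a1 then lost their calls (adjusted p between 0.059 and 0.352). Col4a2 lost it also without Dnmt1-/- day 16 replicate 2 (adjusted p = 0.0618) and Col14a1 without TKO day 16 replicate 1 (adjusted p = 0.0666).

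**Figure D1:**
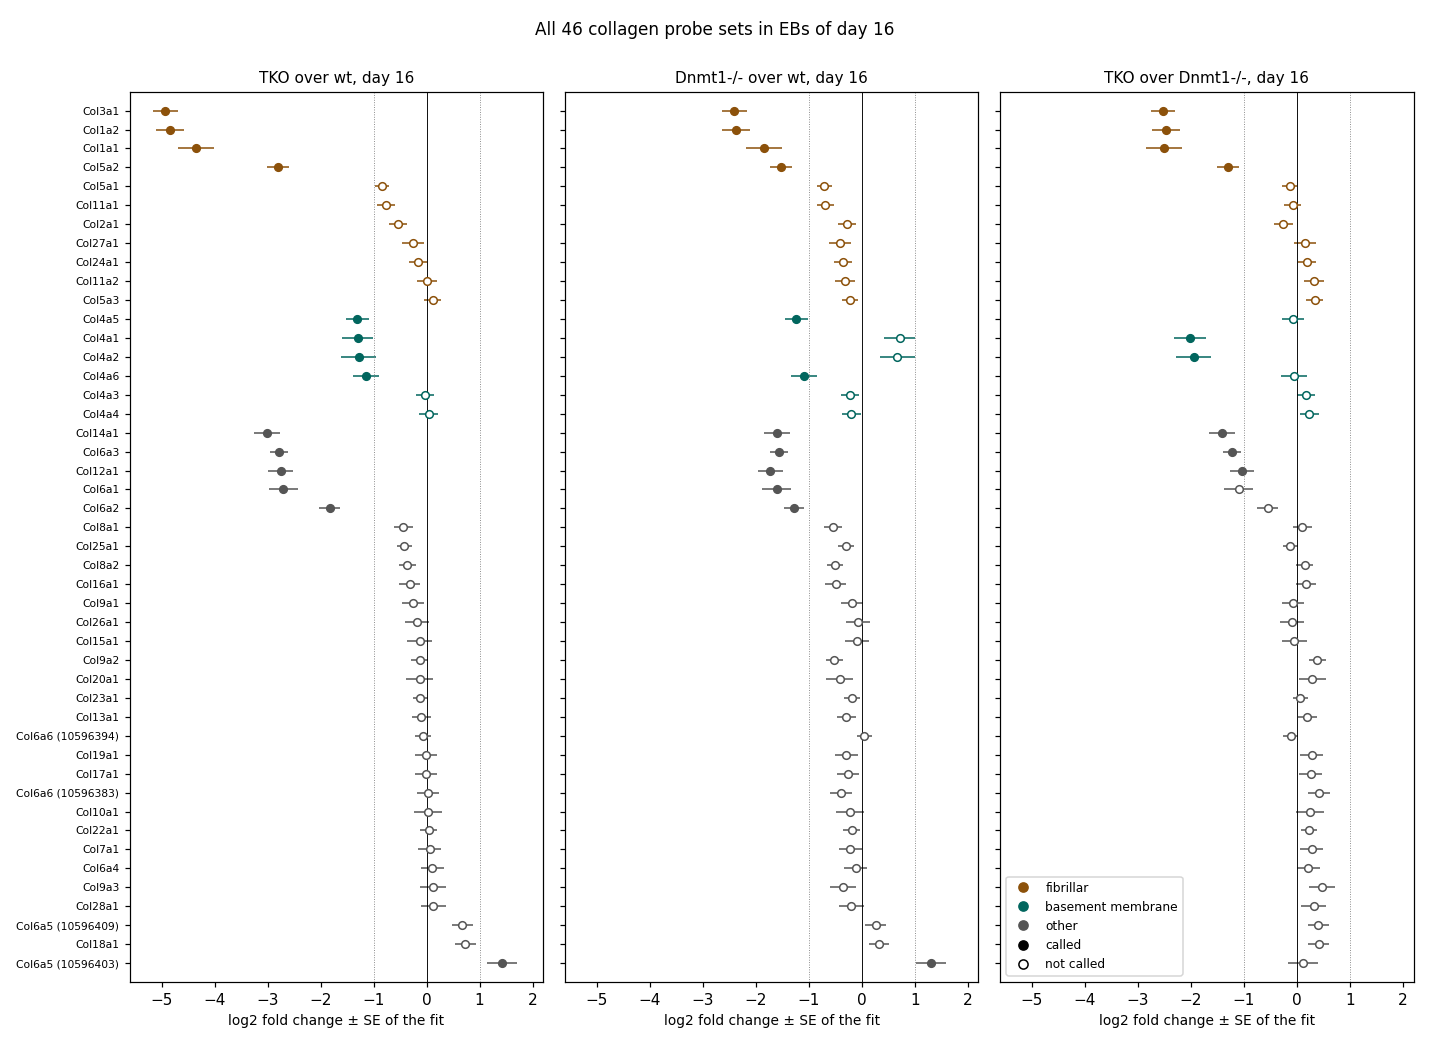
Log2 fold change (x axis, points with SE of the fit) of all 46 collagen probe sets (rows, grouped by class) in EBs of day 16, for TKO over wt (left), Dnmt1-/- over wt (middle) and TKO over Dnmt1-/- (right). Filled points are called, dotted lines mark a 2-fold change. Col3a1 lies farthest left at -4.93 for TKO over wt, and most of the 46 lie close to 0.

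The fibrillar members that moved were the chains of types I and III and one chain of type V, that is Col1a1, Col1a2, Col3a1 and Col5a2. The 300 bases around the start of Col1a2 and of Col3a1 (250 before and 50 after, RefSeq, build GRCm38.p6) hold 13 and 0 CpG dinucleotides. The median was 12 over the 35 of 44 collagen genes that matched the promoter table and 7 over all 32851 windows, and 8.57% of the 35 and 5.43% of all windows held none. CpG is where DNA methyltransferases act, so the 150 bases before both starts are shown with each CpG in capitals.
Col1a2, chr6:4505468-4505617, plus strand: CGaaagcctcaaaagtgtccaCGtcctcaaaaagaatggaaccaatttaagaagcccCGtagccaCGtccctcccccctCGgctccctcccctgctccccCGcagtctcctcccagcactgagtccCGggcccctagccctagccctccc
Col3a1, chr1:45311388-45311537, plus strand: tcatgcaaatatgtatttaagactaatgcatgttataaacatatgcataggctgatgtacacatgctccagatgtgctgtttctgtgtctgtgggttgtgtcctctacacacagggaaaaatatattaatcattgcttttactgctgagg
These arrays carry no measure of methylation.

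Col3a1, the only chain of type III collagen and abundant in loose connective tissue, had the largest difference at day 16. It read 6.50 and 6.43 in TKO EBs, 9.31 and 8.67 in Dnmt1-/- EBs and 11.18 and 11.61 in wt EBs. The groups did not overlap and stood in the order TKO, Dnmt1-/-, wt. TKO EBs were 30.5-fold lower than wt (log2 -4.93, SE 0.23, adjusted p = 1.0e-07) and 5.77-fold lower than Dnmt1-/- (log2 -2.53, adjusted p = 0.000246), and Dnmt1-/- EBs were 5.29-fold lower than wt (log2 -2.40, adjusted p = 3.87e-05). At day 0 and day 4 all 12 arrays lay between 5.68 and 6.24.

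The chains of type I collagen, the main protein of skin, tendon and bone, followed the same order. Col1a2 read 7.82 and 7.12 in TKO EBs of day 16, 10.14 and 9.75 in Dnmt1-/- EBs and 11.92 and 12.72 in wt EBs. Its TKO EBs were 28.8-fold lower than wt (log2 -4.85, SE 0.26, adjusted p = 2.98e-07), and its Dnmt1-/- EBs 5.18-fold lower (log2 -2.37, SE 0.26, adjusted p = 0.000151). Col1a1 read 8.22 and 7.30 in TKO EBs, 10.33 and 10.20 in Dnmt1-/- EBs and 11.78 and 12.46 in wt EBs. For both chains the 3 lines were again without overlap. Col1a1 was 20.5-fold lower in TKO than in wt (log2 -4.36, SE 0.34, adjusted p = 3.6e-06) and 3.61-fold lower in Dnmt1-/- than in wt (log2 -1.85, SE 0.34, adjusted p = 0.00623). The Dnmt1-/- call of Col1a1 was lost without wt day 16 replicate 2 (log2 -1.51, adjusted p = 0.0741) and without Dnmt1-/- day 16 replicate 2 (log2 -1.79, adjusted p = 0.0543).

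Col5a2 encodes a type V chain that starts fibrils of type I, and in RefSeq it is the next gene after Col3a1. It read 6.01 and 5.61 in TKO EBs of day 16, 7.29 and 6.92 in Dnmt1-/- EBs and 8.35 and 8.89 in wt EBs, a difference of -2.81 (SE 0.21, adjusted p = 2.57e-06) for TKO over wt and of -1.52 (SE 0.21, adjusted p = 0.000724) for Dnmt1-/- over wt. The 7 fibrillar members not called were Col2a1, Col5a1, Col5a3, Col11a1, Col11a2, Col24a1 and Col27a1. All 11 fibrillar members had a negative log2 difference for Dnmt1-/- over wt (median -0.69), and 9 of 11 had one for TKO over wt (median -0.77).

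**Figure D2:**
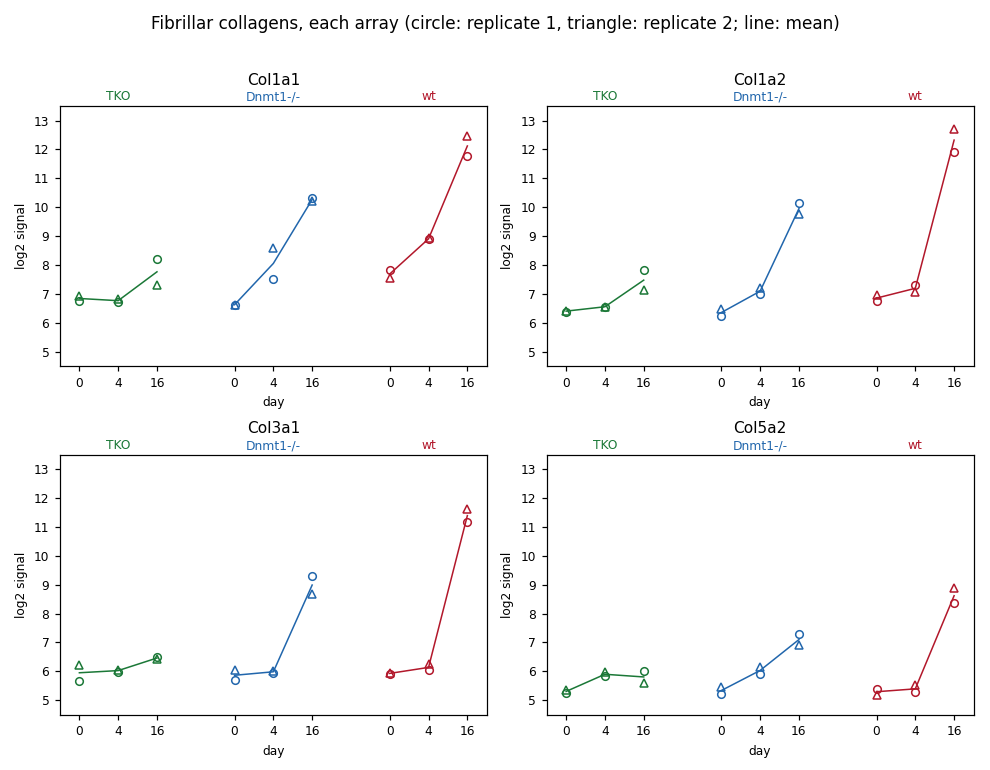
Log2 signal (y axis) of Col1a1, Col1a2, Col3a1 and Col5a2 on each array at days 0, 4 and 16 (x axis, days evenly spaced), with TKO left, Dnmt1-/- in the middle and wt right; circles are replicate 1, triangles replicate 2 and lines join group means. Every gene is highest in wt EBs of day 16, where Col1a2 reaches 11.92 and 12.72.

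Over time these 4 genes rose in wt and in Dnmt1-/- EBs between day 4 and day 16. From day 0 to day 16 wt samples gained 5.47 for Col1a2 (44.4-fold, SE 0.26, adjusted p = 1.06e-07), 5.46 for Col3a1 (44.1-fold), 4.43 for Col1a1 (21.6-fold) and 3.32 for Col5a2 (10.02-fold). Dnmt1-/- samples gained 3.60 for Col1a2 (12.1-fold, SE 0.26, adjusted p = 5.6e-06), 3.13 for Col3a1, 3.64 for Col1a1 and 1.76 for Col5a2. The Dnmt1-/- rise of Col5a2 between day 4 and day 16 (1.07, adjusted p = 0.00939) was lost without day 4 replicate 1 (0.96, adjusted p = 0.0792) and without day 16 replicate 1 (0.88, adjusted p = 0.122). In TKO samples only Col1a2 was called, with 1.07 (2.10-fold, SE 0.26, adjusted p = 0.0347), against 0.92 for Col1a1, 0.51 for Col3a1 and 0.50 for Col5a2. That TKO call was lost without TKO day 0 replicate 1 (1.06, adjusted p = 0.184), without TKO day 0 replicate 2 (1.09, adjusted p = 0.135) and without TKO day 16 replicate 1 (0.72, adjusted p = 0.272).

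The differences between these changes were tested directly. The day 16 over day 0 change was smaller in TKO than in wt for all 4, by a log2 difference of -4.95 for Col3a1 (SE 0.32, adjusted p = 1.14e-05), -4.40 for Col1a2 (SE 0.37, adjusted p = 4.19e-05), -3.51 for Col1a1 (SE 0.48, adjusted p = 0.00131) and -2.82 for Col5a2 (SE 0.29, adjusted p = 0.000196). For Dnmt1-/- minus wt it was called for Col3a1 (-2.34, adjusted p = 0.00412), Col1a2 (-1.87, adjusted p = 0.0308) and Col5a2 (-1.56, adjusted p = 0.0239), but not for Col1a1 (-0.79, SE 0.48, adjusted p = 0.69). For TKO minus Dnmt1-/- it was called for Col3a1 (-2.61, adjusted p = 0.00801) and Col1a2 (-2.52, adjusted p = 0.0236). Col1a1 (-2.72, SE 0.48, adjusted p = 0.058) and Col5a2 (-1.26, SE 0.29, adjusted p = 0.16) were not called there. Over all collagens, 10 probe sets had a smaller change in TKO than in wt, 6 in Dnmt1-/- than in wt and 2 in TKO than in Dnmt1-/-, and 0 a larger one, while 3.91%, 1.37% and 0.152% of all probe sets were called (2.22%, 0.749% and 0.144% with the smaller value). Without one of the 8 arrays used, these counts ran between 9 and 13, between 2 and 5, and between 0 and 3, and in fits of the compared arrays alone the counts for Dnmt1-/- minus wt and for TKO minus Dnmt1-/- were 1 and 0. The count for Dnmt1-/- minus wt was 2 without any single ESC array of either line or without Dnmt1-/- day 16 replicate 2. The count for TKO minus Dnmt1-/- was 0 without Dnmt1-/- day 0 replicate 1 or TKO day 16 replicate 2 and 1 without Dnmt1-/- day 0 replicate 2, Dnmt1-/- day 16 replicate 1 or either TKO ESC array, Col3a1 being lost without the first pair (-2.45, adjusted p = 0.0656, and -2.58, adjusted p = 0.0535).

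By list mean at day 16, the fibroblast and mesenchyme markers stood in the same order of lines as the called fibrillar collagens. Of 14 markers measured, none of them a collagen, 9 were lower in TKO than in wt EBs of day 16 (3.43% of all probe sets). Lower in Dnmt1-/- than in wt were 3 (1.36%), and lower in TKO than in Dnmt1-/- were 5 (0.941%). The mean log2 signal of the 14 per array was 5.90 to 6.29 in TKO EBs, 7.25 to 7.59 in Dnmt1-/- EBs and 8.10 to 8.37 in wt EBs. Dcn (decorin, a proteoglycan that binds collagen fibrils) read 5.42 and 4.74 in TKO EBs, 10.02 and 8.99 in Dnmt1-/- EBs and 11.54 and 11.81 in wt EBs, and the 6 ESC arrays lay between 4.66 and 5.03. Thy1 and Fap were not called in any of the 3 comparisons of day 16. At day 4, 4 of the 14 markers were already lower in TKO than in wt (0.805% of all probe sets), and 1 in Dnmt1-/- than in wt. The markers of undifferentiated ESCs moved the opposite way. Of 6 measured, 5 were higher in TKO than in wt EBs of day 16 (2.4% of all probe sets). Higher in Dnmt1-/- than in wt were 3 (1.53%), and 1 was higher in TKO than in Dnmt1-/- (1.07% called in either direction). The mean log2 signal of the 6 per array was 9.68 to 9.69 in TKO EBs, 8.47 to 8.65 in Dnmt1-/- EBs and 6.89 to 7.32 in wt EBs. Other marker lists hardly moved between lines. In EBs of day 16, 1 of 7 endothelium and 1 of 6 cartilage and bone markers were lower in TKO than in wt (3.43% of all probe sets). Of both lists 0 were called for Dnmt1-/- over wt (2.89%) and for TKO over Dnmt1-/- (1.07%). Of 5 neural markers 0 were called in any of these 3 comparisons. The part of the number of mesenchymal or undifferentiated cells in the collagen differences was not tested.

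Type VI collagen, a heterotrimer of alpha 1, alpha 2 and alpha 3 chains, moved together with types XII and XIV. In wt EBs Col6a1, Col6a2, Col6a3, Col12a1 and Col14a1 rose between day 4 and day 16, and all 5 were lower at day 16 in both mutant lines. The 150 bases before the starts of Col6a1, Col6a2 and Col6a3 are shown for the chains of the trimer, with each CpG in capitals (3, 6 and 3 in the 300-base windows). Col6a2 and Col6a1 are neighbours in RefSeq.
Col6a1, chr10:76726045-76726194, minus strand: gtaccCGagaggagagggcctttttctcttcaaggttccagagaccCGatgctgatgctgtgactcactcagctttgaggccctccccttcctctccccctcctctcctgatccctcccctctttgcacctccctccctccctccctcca
Col6a2, chr10:76623631-76623780, minus strand: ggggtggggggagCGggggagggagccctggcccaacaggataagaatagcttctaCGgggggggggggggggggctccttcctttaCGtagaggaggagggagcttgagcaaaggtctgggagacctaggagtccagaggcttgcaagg
Col6a3, chr1:90844002-90844151, minus strand: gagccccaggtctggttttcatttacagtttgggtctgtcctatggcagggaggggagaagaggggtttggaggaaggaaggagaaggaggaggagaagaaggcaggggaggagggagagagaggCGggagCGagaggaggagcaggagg

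Among Col6a1, Col6a2, Col6a3, Col12a1 and Col14a1, Col6a3 had the smallest SE. It read 5.75 and 6.15 in TKO EBs of day 16, 7.15 and 7.19 in Dnmt1-/- EBs and 8.59 and 8.87 in wt EBs, 3 levels without overlap. It was 6.88-fold lower in TKO than in wt (log2 -2.78, SE 0.17, adjusted p = 5.53e-07) and 2.95-fold lower in Dnmt1-/- than in wt (log2 -1.56, SE 0.17, adjusted p = 0.000101). Its TKO EBs differed from TKO ESCs by -0.06, while wt EBs rose by 2.84 and Dnmt1-/- EBs by 1.27 over their ESCs.

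Col6a1 read 6.99 and 6.78 in TKO EBs of day 16, 8.20 and 7.77 in Dnmt1-/- EBs and 9.10 and 10.08 in wt EBs, a difference of -2.70 (SE 0.27, adjusted p = 3.14e-05) for TKO over wt and of -1.61 (SE 0.27, adjusted p = 0.00379) for Dnmt1-/- over wt. The second call was lost without Dnmt1-/- day 16 replicate 2 (log2 -1.39, adjusted p = 0.05002). Col6a2 read 6.46 and 6.89 in TKO EBs, 7.25 and 7.20 in Dnmt1-/- EBs and 8.36 and 8.64 in wt EBs, with differences of -1.83 (SE 0.20, adjusted p = 5.13e-05) and -1.28 (SE 0.20, adjusted p = 0.00172) from wt. For these chains the TKO and Dnmt1-/- groups did not overlap either, but TKO over Dnmt1-/- was not called for Col6a1 (-1.10, adjusted p = 0.07) or Col6a2 (-0.55, adjusted p = 0.22). Col6a4 and both probe sets of Col6a6 were never called.

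Col12a1 and Col14a1 encode fibril-associated collagens of tendon and dense connective tissue. Col14a1 read 5.77 and 5.96 in TKO EBs of day 16, 7.65 and 6.90 in Dnmt1-/- EBs and 8.90 and 8.87 in wt EBs. TKO EBs differed from TKO ESCs by 0.15, while wt EBs rose by 3.15 and Dnmt1-/- EBs by 1.55. It was 8.09-fold lower in TKO than in wt (log2 -3.02, SE 0.25, adjusted p = 5.22e-06) and 3.04-fold lower in Dnmt1-/- than in wt (log2 -1.61, SE 0.25, adjusted p = 0.00179). Col12a1 read 4.97 and 4.63 in TKO EBs, 6.28 and 5.38 in Dnmt1-/- EBs and 7.65 and 7.46 in wt EBs. Here too wt was highest and TKO lowest, with -2.76 (SE 0.23, adjusted p = 5.97e-06) for TKO over wt and -1.72 (SE 0.23, adjusted p = 0.000622) for Dnmt1-/- over wt. The Dnmt1-/- replicates of Col12a1 were the farthest apart of the 3 lines, and its TKO over Dnmt1-/- call (-1.03, adjusted p = 0.044) was lost without Dnmt1-/- day 16 replicate 1 (-0.58, adjusted p = 0.283), without TKO day 16 replicate 1 (-1.20, adjusted p = 0.0629) and without TKO day 16 replicate 2 (-0.86, adjusted p = 0.352).

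**Figure D3:**
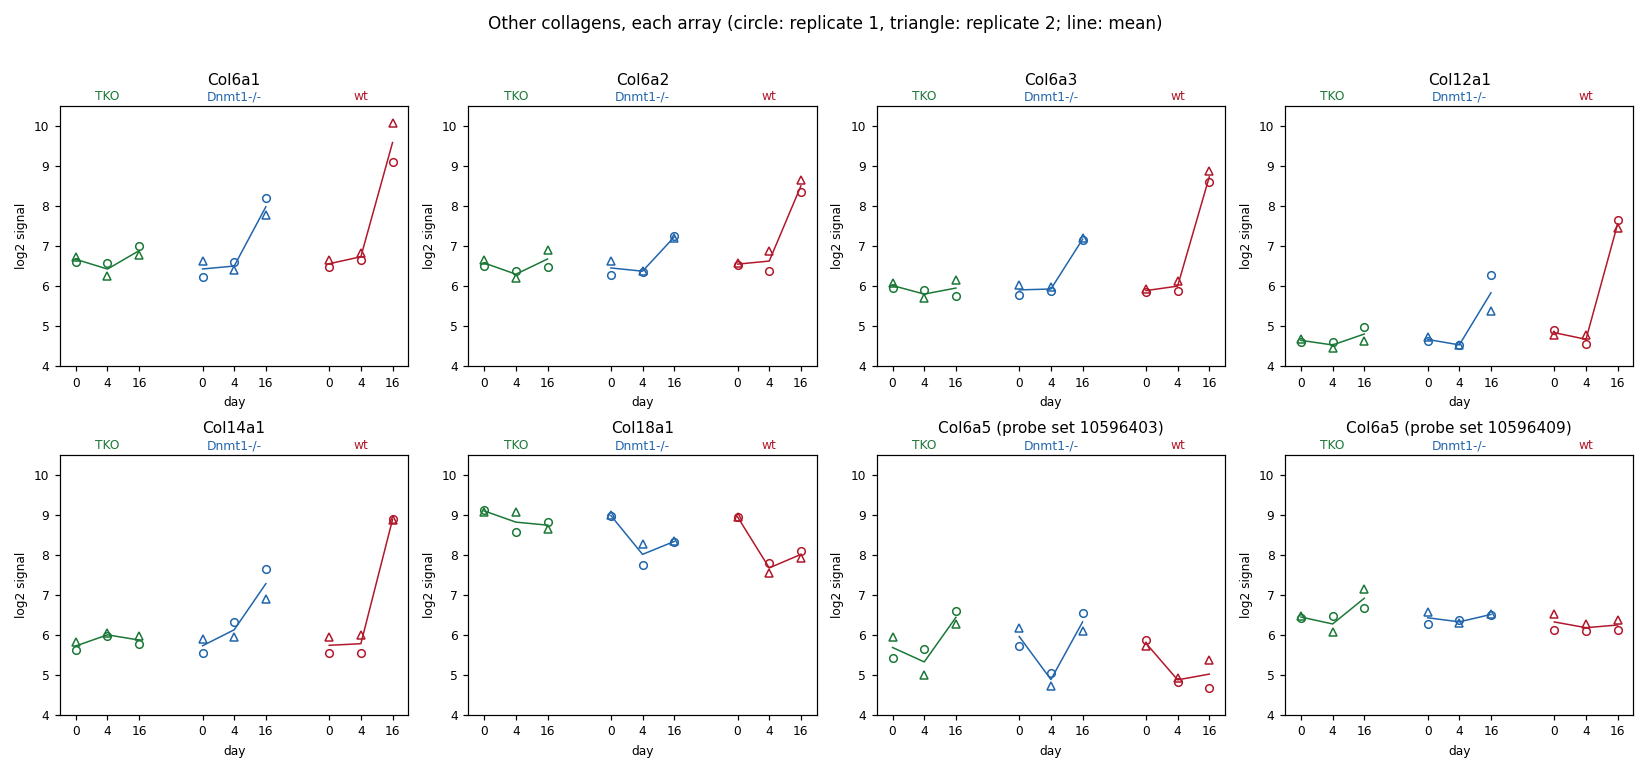
Log2 signal (y axis) on each array at days 0, 4 and 16 (x axis, evenly spaced) for Col6a1, Col6a2, Col6a3, Col12a1, Col14a1, Col18a1 and both probe sets of Col6a5, with TKO left, Dnmt1-/- in the middle and wt right; circles are replicate 1, triangles replicate 2 and lines join means. The first 5 genes are highest in wt EBs of day 16, where Col14a1 reads 8.90 and 8.87, whereas Col18a1 is highest in ESCs.

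Basement membrane collagens split into pairs with different courses. The 6 genes of type IV collagen stand in RefSeq as head-to-head neighbours, Col4a1 with Col4a2, Col4a3 with Col4a4 and Col4a5 with Col4a6. Col4a1 and Col4a2, whose chains form the network of nearly all basement membranes, were called in the same comparisons and in the same direction throughout. Col4a5 and Col4a6 on the X chromosome moved otherwise, and Col4a3 and Col4a4, which form the network of the kidney glomerulus with Col4a5, were never called.

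Col4a1 read 8.26 and 7.98 in TKO EBs of day 16, 10.12 and 10.15 in Dnmt1-/- EBs and 8.82 and 10.03 in wt EBs. Col4a2 read 8.11 and 8.01 in TKO EBs, 10.02 and 10.0023 in Dnmt1-/- EBs and 8.65 and 10.04 in wt EBs. For both genes TKO was lowest and the Dnmt1-/- replicates lay close together, while the wt arrays were far apart, with wt replicate 2 near the Dnmt1-/- arrays (below both for Col4a1 and above both for Col4a2). TKO was below Dnmt1-/- with log2 -2.02 for Col4a1 (4.05-fold, SE 0.29, adjusted p = 0.00532) and -1.95 for Col4a2 (3.87-fold, SE 0.33, adjusted p = 0.0126). TKO over wt was -1.30 (SE 0.29, adjusted p = 0.0104) for Col4a1 and -1.28 (SE 0.33, adjusted p = 0.0222) for Col4a2, and Dnmt1-/- over wt was 0.71 (adjusted p = 0.24) and 0.67 (adjusted p = 0.36). Without wt day 16 replicate 2, TKO over wt was -0.70 (adjusted p = 0.0651) for Col4a1 and -0.59 (adjusted p = 0.161) for Col4a2. Leaving out TKO day 16 replicate 2 also ended these calls, with -1.17 (adjusted p = 0.0843) for Col4a1 and -1.23 (adjusted p = 0.113) for Col4a2, and leaving out TKO day 16 replicate 1 that of Col4a2 (-1.34, adjusted p = 0.0714).

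With Col1a2, these genes were the collagens called higher at day 16 than at day 0 in all 3 lines. The gain was 1.51 for Col4a1 (SE 0.29, adjusted p = 0.011) and 1.39 for Col4a2 (SE 0.33, adjusted p = 0.0313) in TKO, 3.36 and 3.54 in Dnmt1-/- (adjusted p = 1.83e-05 and 3.11e-05) and 2.64 and 2.61 in wt (adjusted p = 3.85e-05 and 0.000108). The TKO calls were lost without TKO day 0 replicate 1 (Col4a1 1.57, adjusted p = 0.0736, and Col4a2 1.40, adjusted p = 0.165), without TKO day 0 replicate 2 (1.45, adjusted p = 0.0756, and 1.38, adjusted p = 0.135) and without TKO day 16 replicate 1 (1.37, adjusted p = 0.101, and 1.33, adjusted p = 0.164), and that of Col4a2 without TKO day 16 replicate 2 (1.44, adjusted p = 0.0962). In wt they were already higher at day 4, by 1.33 for Col4a1 (adjusted p = 0.0124) and 1.14 for Col4a2 (adjusted p = 0.0494). The wt call of Col4a1 was lost without wt day 0 replicate 2 (1.20, adjusted p = 0.104) or wt day 4 replicate 1 (1.21, adjusted p = 0.098), and that of Col4a2 without any of the 4 arrays compared (adjusted p between 0.0803 and 0.277). At day 4 the mutants were not called, with 0.60 and 0.28 in TKO and 0.81 and 0.78 in Dnmt1-/-.

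The markers of parietal and visceral endoderm, the cells that make most type IV collagen in early embryos, moved with Col4a1 and Col4a2. Of 14 measured markers, none of them a collagen, 9 were lower in TKO than in Dnmt1-/- EBs of day 16 (0.941% of all probe sets). Lower in TKO than in wt were 6 (3.43%), and 0 were called between Dnmt1-/- and wt (2.89%), with 5 by limma at an unadjusted p under 0.05. The mean log2 signal of the 14 per array was 8.17 to 8.37 in TKO EBs, 9.54 to 9.63 in Dnmt1-/- EBs and 9.06 to 9.48 in wt EBs. Lama1, a laminin chain of the same membrane, was lower in TKO than in Dnmt1-/- EBs (log2 -2.73), and Afp, a marker of visceral endoderm, rose in TKO EBs too, by 5.84 over TKO ESCs. The part of these cells in the Col4a1 and Col4a2 differences was not tested.

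Col4a5 and Col4a6 lie next to each other on the X chromosome and are read in opposite directions. The 150 bases before each start are shown since the pair moved together, with each CpG in capitals (11 for Col4a5 and 3 for Col4a6 in the 300-base windows).
Col4a5, chrX:141475220-141475369, plus strand: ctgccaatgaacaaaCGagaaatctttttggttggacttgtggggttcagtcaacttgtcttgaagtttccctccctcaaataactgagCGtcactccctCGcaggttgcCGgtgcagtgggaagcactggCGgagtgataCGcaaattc
Col4a6, chrX:141474096-141474245, minus strand: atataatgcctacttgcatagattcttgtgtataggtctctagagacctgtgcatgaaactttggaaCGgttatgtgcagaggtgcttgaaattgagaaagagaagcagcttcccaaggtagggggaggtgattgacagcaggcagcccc
Both rose in wt EBs by day 16, Col4a5 by 1.39 (adjusted p = 0.000414) and Col4a6 by 1.31 (adjusted p = 0.00168), while the changes were 0.09 and 0.13 in TKO and 0.20 and 0.16 in Dnmt1-/-. Tested directly, the difference from the wt change was called for Col4a5 in TKO only (-1.29, adjusted p = 0.027). It was not called for Col4a6 in TKO (-1.19, adjusted p = 0.0757). In Dnmt1-/- it was not called for Col4a5 (-1.18, adjusted p = 0.0887) or Col4a6 (-1.15, adjusted p = 0.169). Col4a5 read 5.73 and 5.95 in TKO EBs of day 16, 5.81 and 6.03 in Dnmt1-/- EBs and 6.93 and 7.37 in wt EBs, and Col4a6 read 5.09 and 5.56 in TKO EBs, 5.23 and 5.55 in Dnmt1-/- EBs and 6.33 and 6.62 in wt EBs. The mutants overlapped each other and lay below wt. For Col4a5 the difference from wt was -1.31 in TKO (SE 0.21, adjusted p = 0.00122) and -1.23 in Dnmt1-/- (SE 0.21, adjusted p = 0.00401), and for Col4a6 -1.15 in TKO (SE 0.25, adjusted p = 0.00754) and -1.09 in Dnmt1-/- (SE 0.25, adjusted p = 0.0211). TKO over Dnmt1-/- was -0.08 for Col4a5 and -0.06 for Col4a6.

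At day 4 Col4a5 read 5.85 and 5.97 in TKO EBs, 5.93 and 6.38 in Dnmt1-/- EBs and 6.63 and 6.71 in wt EBs, and its wt change over day 0 of 0.91 (adjusted p = 0.0167) was below 2-fold. Col4a6 read 5.44 and 5.28 in TKO EBs, 5.62 and 6.28 in Dnmt1-/- EBs and 6.38 and 6.67 in wt EBs, so its Dnmt1-/- arrays lay between the other lines, and TKO was lower than wt (log2 -1.16, SE 0.25, adjusted p = 0.0144). In wt, Col4a6 gained 1.36 by day 4 (adjusted p = 0.00375) and changed by -0.05 between day 4 and day 16. Without single day 16 arrays the Col4a6 calls against wt were lost. Without wt replicate 2 they were -1.001 (adjusted p = 0.0686) in TKO and -0.94 (adjusted p = 0.166) in Dnmt1-/-, without TKO replicate 1 -0.92 (adjusted p = 0.0698), and without Dnmt1-/- replicate 1 or 2 -0.93 and -1.25 (adjusted p = 0.173 and 0.0541). The Col4a5 call in Dnmt1-/- was lost without wt replicate 2 (-1.01, adjusted p = 0.0512) and without Dnmt1-/- replicate 1 (-1.12, adjusted p = 0.05015), and the day 4 call of Col4a6 without wt replicate 2 (-1.02, adjusted p = 0.101), TKO replicate 1 (-1.24, adjusted p = 0.0616) or TKO replicate 2 (-1.08, adjusted p = 0.126).

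**Figure D4:**
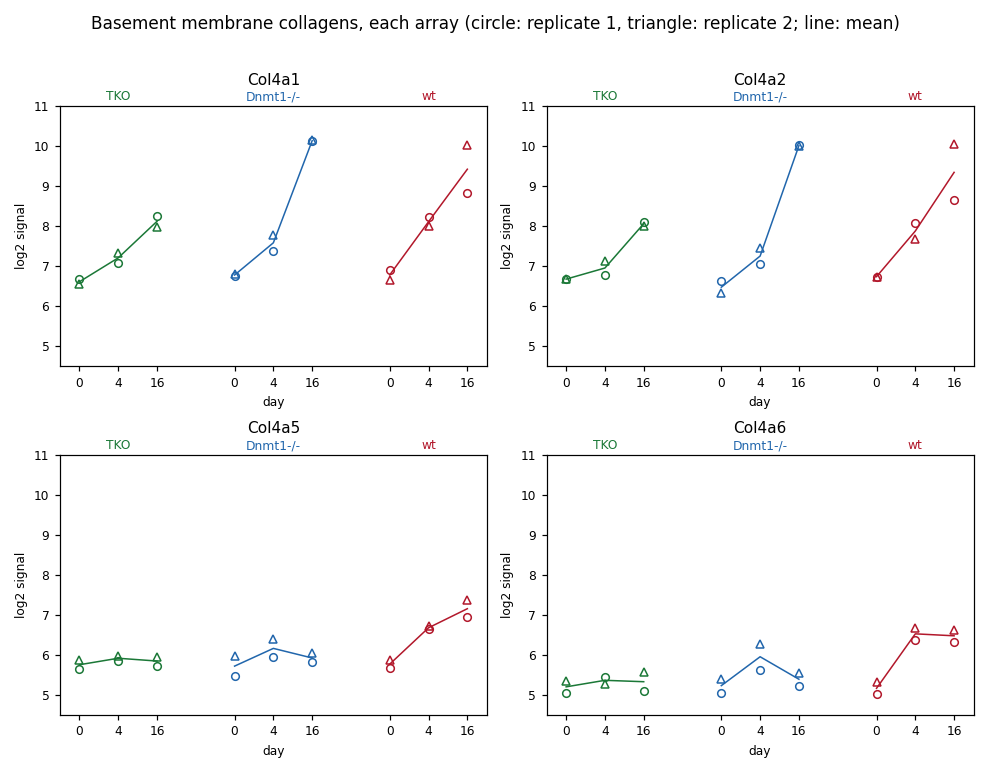
Log2 signal (y axis) of Col4a1, Col4a2, Col4a5 and Col4a6 on each array at days 0, 4 and 16 (x axis, evenly spaced), with TKO left, Dnmt1-/- in the middle and wt right; circles are replicate 1, triangles replicate 2 and lines join means. The Dnmt1-/- replicates of day 16 lie close together for Col4a1 (10.12 and 10.15) and for Col4a2 (10.02 and 10.0023). The rise of Col4a5 and Col4a6 was called in wt only. The difference of a mutant's change from that of wt was called only for Col4a5 in TKO.

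At day 4, 1 collagen probe set was higher and 2 were lower in TKO than in wt EBs, or 6.52% of the members against 2.92% of all probe sets (2.11% higher and 0.805% lower). None was called for Dnmt1-/- over wt (0.738% of all probe sets) or TKO over Dnmt1-/- (0.848%), where limma gave 4 and 4 collagens at an unadjusted p under 0.05 (5.83% and 10% of all probe sets). Beside Col4a6 the lower one was Col1a1, which read 6.71 and 6.82 in TKO EBs, 7.50 and 8.60 in Dnmt1-/- EBs and 8.89 and 8.92 in wt EBs, again in the order TKO, Dnmt1-/-, wt. The difference of TKO over wt was -2.14 (SE 0.34, adjusted p = 0.00258). It was the 1 fibrillar collagen called between lines at day 4. Over day 0 it had gained 1.43 in Dnmt1-/- (adjusted p = 0.0184), 1.22 in wt (adjusted p = 0.0416) and -0.08 in TKO. The wt gain lost its call without any of the 4 arrays compared (adjusted p between 0.101 and 0.219), and the Dnmt1-/- gain without either day 0 array (adjusted p = 0.0849 and 0.0921) or without day 4 replicate 2 (0.88, adjusted p = 0.21).

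Col18a1, the source of the fragment endostatin, went the other way. It read 8.57 and 9.06 in TKO EBs of day 4, 7.74 and 8.28 in Dnmt1-/- EBs and 7.81 and 7.54 in wt EBs, while all 6 ESC arrays lay between 8.94 and 9.12. Its 300-base window holds 16 CpG, beside a median of 12 over the 35 collagen genes with a window. The 150 bases before the start of Col18a1 are shown with each CpG in capitals.
Col18a1, chr10:77166531-77166680, minus strand: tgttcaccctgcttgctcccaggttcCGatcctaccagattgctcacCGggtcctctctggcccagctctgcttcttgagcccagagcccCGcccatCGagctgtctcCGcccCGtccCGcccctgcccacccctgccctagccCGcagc
By day 4 it had fallen by 1.28 in wt (SE 0.19, adjusted p = 0.00128), with a change of -0.97 in Dnmt1-/- (adjusted p = 0.0068), just short of 2-fold, and of -0.28 in TKO (adjusted p = 0.51). TKO was higher than wt at day 4 by 1.15 (SE 0.19, adjusted p = 0.00372), a call lost without TKO day 4 replicate 2 (0.90, adjusted p = 0.0553). At day 16 it read 8.83 and 8.65 in TKO, 8.31 and 8.36 in Dnmt1-/- and 8.11 and 7.91 in wt, with 0.73 (adjusted p = 0.025) for TKO over wt, below 2-fold. By group mean the lines kept the order TKO, Dnmt1-/-, wt from highest to lowest, the reverse of the fibrillar genes called at day 16. At day 4 the Dnmt1-/- and wt arrays overlapped, and Dnmt1-/- was not called against either line on any day.

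Col6a5, a type VI chain of narrow distribution, was higher in the mutants at day 16 on one of its probe sets. On the dimmer probe set (10596403) it read 6.59 and 6.28 in TKO EBs, 6.55 and 6.09 in Dnmt1-/- EBs and 4.67 and 5.36 in wt EBs, with 1.42 (SE 0.29, adjusted p = 0.00536) for TKO over wt and 1.31 (SE 0.29, adjusted p = 0.0179) for Dnmt1-/- over wt. On the brighter probe set (10596409) it read 6.67 and 7.15 in TKO EBs, 6.49 and 6.52 in Dnmt1-/- EBs and 6.12 and 6.37 in wt EBs, with 0.67 (SE 0.20, adjusted p = 0.0436) and 0.26 (adjusted p = 0.63), so the probe sets disagree about the size, and the brighter one stayed below 2-fold. The calls of the dimmer set were lost without wt day 16 replicate 1 (1.08, adjusted p = 0.0566, for TKO and 0.96, adjusted p = 0.129, for Dnmt1-/-), and that for Dnmt1-/- without Dnmt1-/- day 16 replicate 1 (1.07, adjusted p = 0.167).

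Across the time course the 3 lines called different numbers of collagens. Between day 0 and day 16, 3 rose and 0 fell in TKO, 10 rose and 0 fell in Dnmt1-/- and 13 rose and 0 fell in wt, against 2.5%, 6.9% and 10.8% of all probe sets called (1.87%, 4.8% and 6.17% as higher). Between day 4 and day 16, 0 were called in TKO, 11 rose in Dnmt1-/- and 11 rose in wt, against 1.41%, 2.7% and 5.87% (2.39% in Dnmt1-/- and 3.94% in wt as higher), and limma gave 6 collagens for TKO at an unadjusted p under 0.05 (14.9% of all probe sets). Between day 0 and day 4, 0 were called in TKO (5 at an unadjusted p under 0.05 by limma, a limit passed by 18.1% of all probe sets), 1 rose and 1 fell in Dnmt1-/- and 4 rose and 1 fell in wt, against 3.17%, 4.61% and 4.51%. Of all probe sets 2.56% were called higher and 2.05% lower in Dnmt1-/-, and 2.43% higher and 2.08% lower in wt. The difference of the day 4 over day 0 change was called for 0 collagens in TKO minus wt, Dnmt1-/- minus wt or TKO minus Dnmt1-/- (1.38%, 0% and 0.031% of all probe sets called). At an unadjusted p under 0.05 limma gave 5, 0 and 4 collagens (10.3%, 4.1% and 6.31% of all probe sets). Without Dnmt1-/- day 16 replicate 1 the Dnmt1-/- count between day 4 and day 16 was 6. Without single arrays the day 16 over day 0 count in TKO ran between 0 and 2, and the wt count of day 4 over day 0 between 2 and 3.

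Collagen chains need a set of enzymes and chaperones to fold, be trimmed and be linked, and 28 such genes were measured by the probe set of highest mean signal. At day 16, 8 were lower in TKO than in wt EBs (3.43% of all probe sets) and 1 higher (2.4%). Lower in Dnmt1-/- than in wt were 3 (1.36%), and lower in TKO than in Dnmt1-/- were 3 (0.941%). Lox, the lysyl oxidase that crosslinks fibrils, read 4.08 and 4.25 in TKO EBs, 6.03 and 4.97 in Dnmt1-/- EBs and 7.75 and 7.75 in wt EBs, with -3.59 for TKO over wt and -2.25 for Dnmt1-/- over wt. Like Col3a1, it had risen in wt by 3.27, in Dnmt1-/- by 1.41 and by 0.05 in TKO over day 0.

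Pcolce and Pcolce2 encode enhancers of the protease that trims the C-terminal propeptide of fibrillar chains, and they moved in opposite directions. Pcolce read 8.06 and 7.43 in TKO EBs of day 16, 8.50 and 8.23 in Dnmt1-/- EBs and 9.85 and 10.09 in wt EBs, with -2.23 for TKO over wt and -1.60 for Dnmt1-/- over wt. Against their own ESCs it fell by 1.76 in TKO and by 1.10 in Dnmt1-/-, and rose by 1.04 in wt. Pcolce2 read 7.99 and 7.88 in TKO EBs, 6.78 and 6.24 in Dnmt1-/- EBs and 5.89 and 5.55 in wt EBs, with 2.21 for TKO over wt, and it was highest in ESCs of all lines. P3h4, whose protein acts with the prolyl 3-hydroxylases and lysyl hydroxylases, was lower in TKO than in Dnmt1-/- (log2 -1.52) and than in wt (log2 -1.97). Serpinh1, the collagen chaperone Hsp47, rose in all 3 lines by day 16, by 1.49 in TKO, 2.46 in Dnmt1-/- and 2.26 in wt.

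Of 7 measured collagen receptors, 2 were lower in TKO than in wt EBs of day 16 (3.43% of all probe sets). They were the integrin chain Itgb1 (-1.28) and the tyrosine kinase Ddr2 (-1.002). For Dnmt1-/- over wt 0 were called (2.89%), with 2 by limma at an unadjusted p under 0.05. For TKO over Dnmt1-/- 0 of the 7 receptors were called (1.07%). Of 11 measured genes of collagen breakdown and its inhibitors, 6 were lower in TKO than in wt (3.43%) and 4 in Dnmt1-/- than in wt (1.36%), and 0 were higher. Between the mutant lines 0 of the 11 were called (1.07%), so no order of TKO and Dnmt1-/- was called for the genes below. Against wt, the inhibitor Timp2 was at log2 -2.74 in TKO and -1.64 in Dnmt1-/-, and the gelatinase Mmp2 at -2.45 in TKO and -1.26 in Dnmt1-/-. The membrane-bound collagenase Mmp14 was at -1.77 in TKO and -1.06 in Dnmt1-/-, and its relative Mmp16 at -1.55 in TKO and -1.26 in Dnmt1-/-. Mmp8 and Mmp13, collagenases of neutrophils and cartilage, were not called in any of the 3 comparisons of day 16. The median log2 difference of TKO over wt was -0.73 for the processing genes, -0.66 for the receptors and -1.19 for the breakdown genes, beside 0.05 for all probe sets.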

How the data were processed

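The authors deposited log2 signals per probe set for 18 arrays, made with RMA, which corrects background, normalizes between arrays and summarizes the probes of a set. Neither the RMA version nor the probe annotation or any filter is stated in the sources used here. RMA pulls arrays towards one distribution, so values are relative to the other arrays. They were used unchanged. Samples were grouped by the genotype and day in their labels. A linear model of the 9 groups was fitted with limma 3.58.1 under R 4.3.3 on all 18 arrays together (eBayes moderation, 9 residual and 3.32 prior degrees of freedom), with Benjamini-Hochberg adjustment over all 35512 probe sets within each comparison. Calls required a log2 fold change of 1 or more in size together with a false discovery rate below 0.05. The median SE was 0.203 for a log2 fold change and 0.287 for a difference of changes. With 2 arrays in each group, their number limits the precision. Each genotype was studied in a single ESC line, so differences of genotype and differences of line cannot be told apart, whatever the adjusted p-value. The labels call them biological replicates, and the study describes its arrays as coming from separate experiments. The fit was tested on simulated data with known effects.

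Gene names came from a probe annotation table, and those annotated to more than 1 symbol were left out. The collagen members, classes, processing, receptor, breakdown and marker lists were chosen with earlier results of these data known. Per-array values are given for fibrillar and type IV members called in any pairwise comparison, for up to 10 other called members with the largest change, for the largest uncalled changes, and for up to 4 called genes of each pathway list. Serpinh1, Dcn, Lama1, Afp, Thy1, Fap, Mmp8 and Mmp13 were named after their values were seen. Of several probe sets of a gene the brightest is shown, and both are given for Col6a5. Promoter windows and gene neighbours came from RefSeq tables (GRCm38.p6), and CG was counted within each 300-base window. The files name no genome build, so no probe coordinates are given. Alternatives were one false discovery rate over all comparisons, other normalization, a filter on dim probe sets, trend and robust variance, a replicate block, a fit of the compared arrays alone and omission of each array.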

Additional observations from a re-analysis of the deposited data

Results flagged for a closer look

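The results below stand out because the change between day 0 and day 16 differed between lines in a direct test of that difference (limma, false discovery rate under 0.05 and log2 difference of at least 1). For TKO minus wt, 10 collagens did so, all with the smaller change in TKO. They were Col3a1 (-4.95), Col1a2 (-4.40), Col1a1 (-3.51), Col14a1 (-3.00), Col6a3 (-2.91), Col5a2 (-2.82), Col6a1 (-2.81), Col12a1 (-2.56), Col6a2 (-1.86) and Col4a5 (-1.29). The Col4a5 difference was lost without wt day 0 replicate 1 (-1.20, adjusted p = 0.0955) or 2 (-1.39, adjusted p = 0.0595), wt day 16 replicate 2 (-1.07, adjusted p = 0.104), TKO day 0 replicate 1 (-1.40, adjusted p = 0.0535) or 2 (-1.19, adjusted p = 0.109) and TKO day 16 replicate 1 (-1.18, adjusted p = 0.0884).

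For Dnmt1-/- minus wt, 6 collagens had the smaller change in Dnmt1-/-, namely Col3a1 (-2.34), Col1a2 (-1.87), Col14a1 (-1.59), Col6a3 (-1.58), Col5a2 (-1.56) and Col12a1 (-1.56). Those of Col3a1 and Col6a3 kept their calls whichever array was left out. Col14a1 (adjusted p between 0.0704 and 0.19) and Col12a1 (0.0677 and 0.148) lost theirs without any of the 8 arrays except Dnmt1-/- day 16 replicate 1. Col1a2 (0.0522 and 0.132) did so without any except wt day 16 replicate 1, and Col5a2 (0.0503 and 0.106) without any except replicate 1 of day 16 of either line. For TKO minus Dnmt1-/-, 2 had the smaller change in TKO, Col3a1 (-2.61) and Col1a2 (-2.52). Col1a2 lost its call without any of the 8 arrays except Dnmt1-/- day 16 replicate 2 and TKO day 16 replicate 1 (adjusted p between 0.0689 and 0.155).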

How the results depend on the processing

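Over all alternatives 0 of the collagen calls changed direction, though several settings could not reverse a call. A shared false discovery rate, the filter on dim probe sets and trend and robust variance leave the log2 difference unchanged. So do the replicate block and the fit of the compared arrays alone. Only results called in the main fit were followed here, so calls gained under a setting are not in these counts. The pathway and marker genes were not followed through the alternatives. Under settings other than leaving out an array, 709 of 759 such results kept the call and 50 lost it. Of the lost calls, 43 were in fits of the compared arrays alone, which use fewer samples. With one array left out, 399 of 516 kept the call and 117 lost it. In fits of the compared arrays alone the count of called collagens was 3 for Dnmt1-/- over wt and 0 for TKO over Dnmt1-/- at day 16, 0 for Dnmt1-/- day 4 over day 0, 5 for Dnmt1-/- day 16 over day 4, 1 for the TKO minus wt difference of the day 4 over day 0 change, and 1 for Dnmt1-/- minus wt and 0 for TKO minus Dnmt1-/- of the day 16 over day 0 change. One false discovery rate over all comparisons gave 1 for TKO over Dnmt1-/- at day 4, 1 for TKO day 16 over day 4 and 3 for wt day 4 over day 0. Subtraction of array medians gave 3 for wt day 4 over day 0, and moved the median log2 difference of all probe sets to between -0.14 and 0.05. Without the lowest 30% of probe sets the counts were 1 for TKO day 16 over day 4 and 4 for the TKO minus Dnmt1-/- difference of the day 16 over day 0 change.

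Replicate numbers were to be taken as pairing the samples only where a source ties a number to a shared batch or day, or where every pair of groups correlates above 0.1. The study describes separate experiments without tying the numbers to them, and the correlation of same-numbered deviations ran between 0.041 and 0.501 over 36 pairs of groups (median 0.273) with 32 above 0.1, so the block was kept as an alternative. The data do hold signs of a shared replicate set, since replicate 1 had the larger SD over probe sets in 9 of 9 groups (2.29 to 2.35, against 2.24 to 2.30 for replicate 2). With the replicate block the count was 1 for the TKO minus wt difference of the day 4 over day 0 change, and the other 23 counts stayed within 1.5 times. With single arrays left out, the counts at day 16 ran between 11 and 14 for TKO over wt, 9 and 11 for Dnmt1-/- over wt and 4 and 8 for TKO over Dnmt1-/-. At day 4 they ran between 1 and 3 for TKO over wt and 0 and 1 for TKO over Dnmt1-/-. Over time they ran between 0 and 2 for TKO day 16 over day 0, 0 and 2 for Dnmt1-/- day 4 over day 0, 6 and 11 for Dnmt1-/- day 16 over day 4, 2 and 3 for wt day 4 over day 0, 9 and 13 for wt day 16 over day 4 and 13 and 16 for wt day 16 over day 0. For the differences of the day 16 over day 0 change they ran between 2 and 5 (Dnmt1-/- minus wt), 0 and 3 (TKO minus Dnmt1-/-) and 9 and 13 (TKO minus wt). A group left with 1 array was assumed to vary like the others. The cause of these moves was not tested for any setting.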
